A study of Mus musculus with 6 samples.

Results

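Cytosolic ribosomal proteins are the protein parts of the ribosome that works in the cytoplasm, and their genes were examined here in Ba/F3 cells with and without an induced PAX5-KIDINS220 fusion. The genes were chosen by symbol alone: a platform symbol of Rpl or Rps followed by a digit, or Rplp0, Rplp1, Rplp2 or Rpsa, without the S6 kinases (Rps6k), Rps19bp1, Rpl7l1 and pseudogene symbols. Where the platform annotation pairs several probe sets with a gene and with no other, the one of highest mean signal over the 6 arrays stands for it. This gave 48 genes of 18193, of which 21 encode small subunit proteins, 22 encode large subunit proteins and 5 are paralogs (Rpl3l, Rpl22l1, Rpl39l, Rps4l and Rps27l). Of 79 ribosomal proteins listed for the mammalian cytosolic ribosome, 44 had a probe set of this kind, 27 lay only in probe sets with several symbols and 8 in neither. Fau is among these 44 but outside the symbol rule.

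Ba/F3 is an interleukin-3-dependent murine haematopoietic line of BALB/c background. All samples carried the fusion behind the doxycycline-inducible promoter of a Retro-X Tet-on Advanced retroviral vector, so the untreated cells held the construct too, and all were grown with 20% WEHI-3 supernatant. The Dox(+) group received 500 ng/mL doxycycline and the Dox(-) group none, and total RNA was taken after 24 h. Each group had 3 arrays. The study asked which pathways the fusion affects, and no sample with doxycycline but without the fusion was analysed here, so the fusion and the drug cannot be told apart. Nothing in the labels tells whether the cultures were separate, so p-values measure the spread between these samples, which may be technical.

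The array codes in the labels begin with EA15 or EA20. The EA15 set had 1 array of each group and the EA20 set 2 of each, and what the code marks is not stated. In the EA20 set the codes of the treated arrays precede those of the untreated ones, so code order and treatment cannot be told apart there. Values below are listed with the EA15 array first, then the first and the second EA20 array in code order.

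A ribosome has a small subunit, which reads the mRNA, and a large subunit, which forms peptide bonds. Ribosomal protein mRNAs are among the most abundant in growing cells, and most begin with a C followed by a run of pyrimidines, the 5′ terminal oligopyrimidine (TOP) motif. Through this motif mTOR controls how much the mRNAs are translated, with LARP1 and the 4E-BPs, so protein output can change while the mRNA level does not. Arrays measure only the mRNA level.

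The starts of 6 genes with mid-range signals, which carry the main values below, are shown from RefSeq (GRCm38.p6), with 20 bases before and 20 from the annotated transcription start. Capitals mark the longest run of at least 5 C or T on the sense strand that holds a base within 5 of the start. The windows were chr9:120571497-120571536 (plus strand) for Rpl14, chr4:86857348-86857387 (minus strand) for Rps6, chr2:32961692-32961731 (plus) for Rpl12, chr7:109519175-109519214 (plus) for Rpl27a, chr9:44407694-44407733 (plus) for Rps25 and chr15:5116593-5116632 (plus) for Rpl37.
Rpl14: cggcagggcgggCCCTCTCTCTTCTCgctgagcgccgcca
Rps6: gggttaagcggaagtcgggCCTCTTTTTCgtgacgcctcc
Rpl12: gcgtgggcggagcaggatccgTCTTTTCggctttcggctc
Rpl27a: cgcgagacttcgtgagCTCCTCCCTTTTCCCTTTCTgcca
Rps25: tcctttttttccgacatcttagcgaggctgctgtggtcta
Rpl37: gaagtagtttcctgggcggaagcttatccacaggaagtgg
The first 4 held such a run and the windows of Rps25 and Rpl37 did not, which says only that these letters are not at these annotated starts. Of the 42 ribosomal protein genes with a promoter in the table, 26 (61.9%) held a run, against 35.1% of all 27025 genes with a promoter. The same run of A or G, which is its match on the other strand, was present at 8 of the 42 genes (19.0%) and 37.3% of all genes. A C at the annotated start itself, with C or T following it for at least 5 bases in all, was found at 8 of the 42 genes (19.0%) and 3.01% of all genes. Rpl14 and Rps6 were among these 8 genes.

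The deposited values were linear signals, and each array had been scaled so that its trimmed mean was 500, so a difference is relative to the rest of the RNA on the array and a change in total mRNA per cell would not show. The ribosomal protein genes took 5.76%, 6.11% and 6.72% of the total signal on the Dox(+) arrays, against 5.84%, 6.96% and 6.22% on the Dox(-) arrays. The 3′ to 5′ signal ratio of the actin control, a measure of RNA integrity, was 1.17, 1.24 and 1.20 on the Dox(+) arrays and 1.18, 1.23 and 1.18 on the Dox(-) arrays. Ptprc, the leukocyte antigen CD45, had signals of 8061, 17579 and 17687 on the Dox(+) arrays and 7450, 15957 and 15838 on the Dox(-) arrays. Over the 7 Ba/F3 and haematopoietic markers the mean signals ran from 31.5 to 16950, and Csf2rb, the common beta chain of the interleukin-3 receptor, had at least 8398 on every array. Il3ra, the alpha chain of that receptor, had signals of 317, 898 and 821 on the Dox(+) arrays and 296, 827 and 719 on the Dox(-) arrays. Kit, the stem cell factor receptor, was lowest, with 18.5, 68.1 and 4.40 on the Dox(+) arrays and 30.6, 22.7 and 45.0 on the Dox(-) arrays, in the range of the stromal markers. The 6 stromal and epithelial markers had mean signals of 15.7 to 81.8, and the 7 markers of the myelomonocytic WEHI-3 line had mean signals of 10.3 to 273. Pax5 and Kidins220, the genes joined in the fusion, differed by 0.21 (adjusted p = 0.897, limma) and 0.11 (adjusted p = 0.511) on the log2 scale between Dox(+) and Dox(-), and neither passed. Whether these probe sets read the transgene is not known.

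None of the 48 ribosomal protein genes passed the test of a difference with doxycycline. The difference was fitted with limma on log2(signal + 16) with a block for the array set, and p-values were adjusted over all 18193 genes by the Benjamini-Hochberg method with a threshold of 0.05. In that fit 0 of 48 members passed, against 0.198% of all genes (0.148% higher and 0.0495% lower). At an unadjusted p under 0.05 there were 4 of 48, against 11.1% of all genes. These were Rpl14, Rps25 and Rps6 below, where 5.26% of all genes lay, and Rpl3l above. With the EA20 set alone 0 of 48 passed, against 0.412% of all genes. The low share over all genes leaves a count of 0 in 48 near the background.

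The differences of most members were small. The median of the log2 difference over the 48 genes was -0.02, with a range of -0.39 to 0.82, and over all genes it was 0.0037. A difference within 0.1 on the log2 scale was found for 41 of the 48 (85.4%) and for 35.5% of all genes. It was found for 57.8% of the 1781 other genes above the 90th percentile of mean signal. Among the 37 other genes with a mean signal above 20000 the share was 73.0%. The 41 were all 34 members above that signal, 4 of the 10 between 50 and 20000, and 3 of the 4 below 50. Of the 48 differences, 39 were below 0, against 49.3% of all genes. That count was 26 after quantile normalization, where the median over the members was -0.0022 and over all genes 0.0084. It was 24 after median centring, where these medians were -5.4e-05 and 0.028. Median centring shifts all genes of an array alike, so the place of the members relative to all genes is kept. The count was 14 without the first EA20 array of either Dox(+) or Dox(-), so it rests on single arrays. The median within the EA15 set was -0.0057, and within the EA20 set it was -0.03. By this measure 30 members lay below 0 in the EA15 set and 41 in the EA20 set, against 8640 and 9154 of all 18193 genes.

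**Figure D1:**
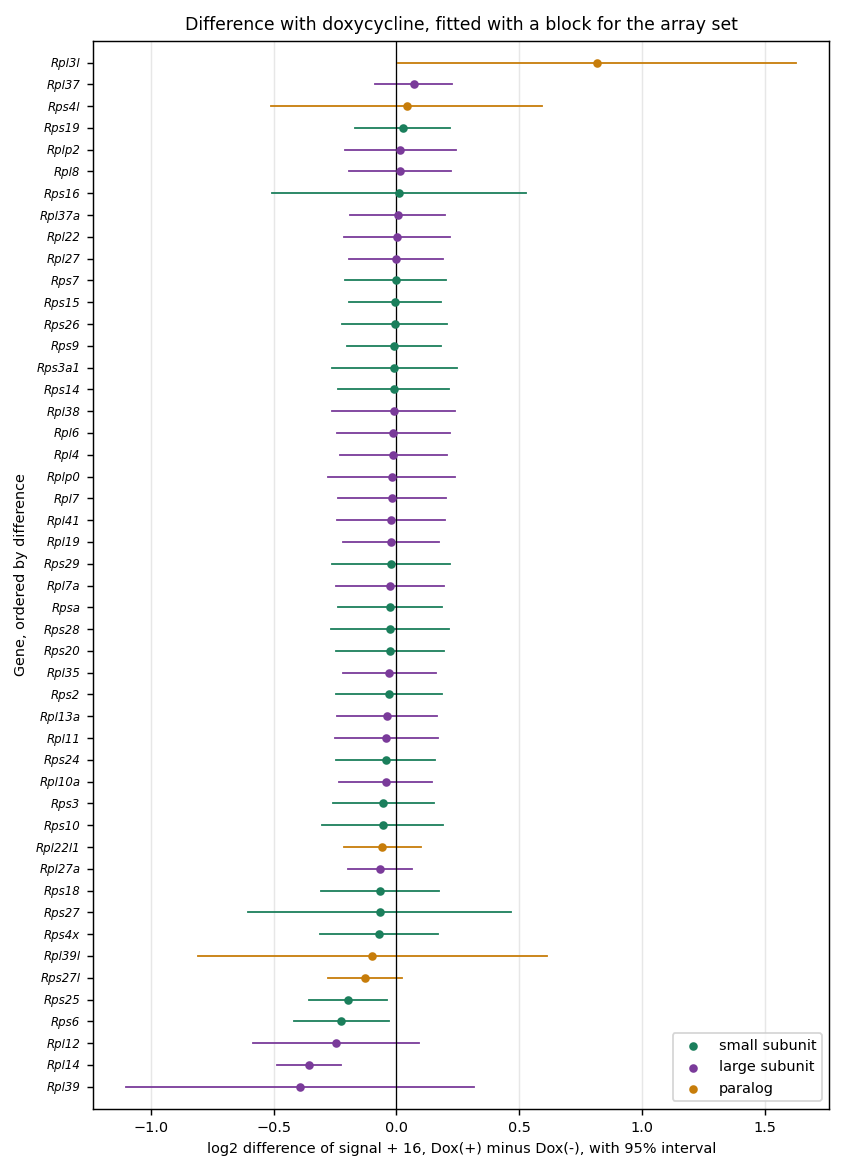
Log2 difference of signal + 16, Dox(+) minus Dox(-), for each of the 48 ribosomal protein genes (rows, ordered by the difference), with the 95% interval of the limma fit with a block for the array set; colours mark small subunit, large subunit and paralog genes. The points lie close to 0 for 41 genes, and the wide intervals belong to genes with low signals such as Rpl3l and Rpl39.

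The signals fell into 3 ranges. In 34 members the mean signal was above 20000, in 10 it was between 50 and 20000, and in 4 it was below 50. These limits were set after the values were seen, and since probe sets differ in how well they bind, a range of signal is not a level of expression between genes. All 34 bright members are core ribosomal proteins. Their fold differences between Dox(+) and Dox(-) lay between 0.952 and 1.02, and their 95% intervals reached from 0.806 to 1.18. The median standard error of these log2 differences was 0.095. After quantile normalization, an alternative added after the data were seen, the median standard error was 0.057 and the intervals reached from 0.880 to 1.14. Then 16 of the 34 differences were below 0, against 29 as deposited. As deposited, 48.6% of the 37 other genes above 20000 lay below 0.

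**Figure D2:**
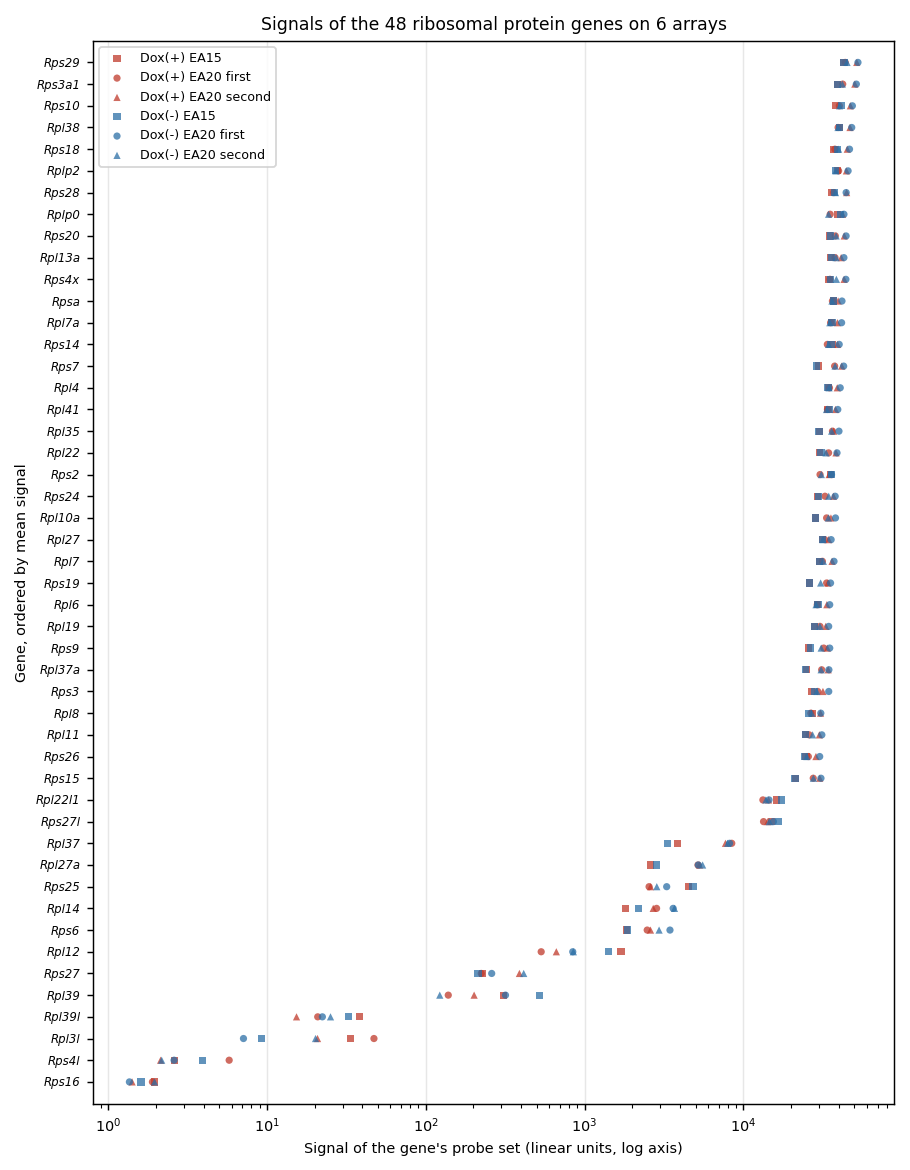
Signals (linear units on a log axis) of the 48 ribosomal protein genes on the 6 arrays; rows are ordered by mean signal, red marks are Dox(+) arrays and blue marks Dox(-) arrays, with squares for EA15 and circles and triangles for the first and second EA20 array. In 34 genes the mean signal is above 20000 and the marks of both groups are interleaved. The squares lie apart from the other marks in Rpl12, Rpl37 and Rpl27a. They do so also in other genes, such as Rpl14, Rps6, Rps25 and, among the bright ones, Rps15.

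The bright members moved together from array to array inside each group. Their median signal was 32784, 34108 and 38141 on the Dox(+) arrays and 32746, 39628 and 34380 on the Dox(-) arrays. In the EA20 set the second Dox(+) array was above the first in all 34, and the first Dox(-) array was above the second in all 34. The median gaps on the log2 scale were 0.17 and 0.22. This order was not particular to ribosomal proteins: both gaps ran the same way in 36 of the 37 other genes with a mean signal above 20000, such as Eef1a1, the translation elongation factor, and in 27.5% of all genes. The spread between arrays of 1 group was wider than the difference between the groups for the bright members.

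**Figure D3:**
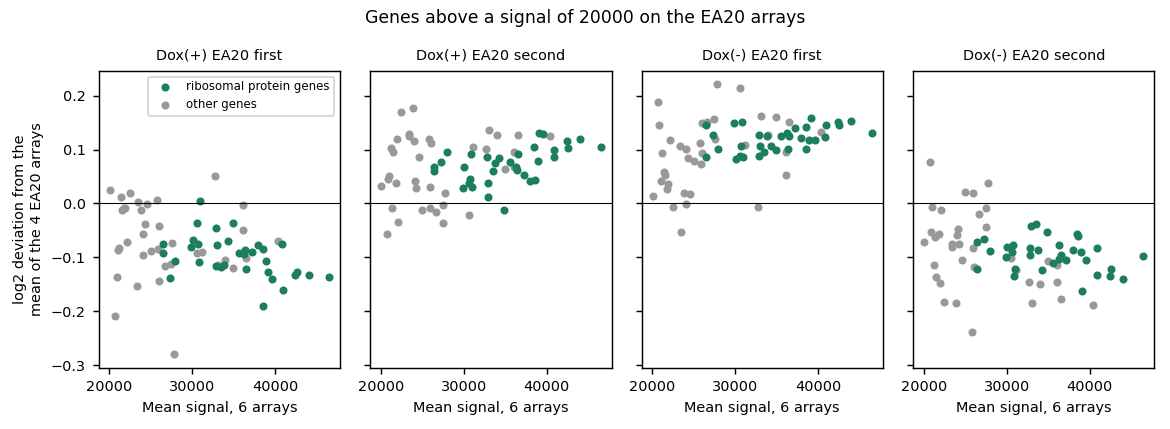
Log2 deviation of each gene from its mean over the 4 EA20 arrays, plotted against mean signal over the 6 arrays (linear units), for the 34 ribosomal protein genes (green) and the 37 other genes (grey) above 20000; each panel is 1 array, Dox(+) on the left. Most points lie below 0 on the first Dox(+) and the second Dox(-) array and above 0 on the others, for ribosomal protein genes and other genes alike.

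Among the large subunit genes, Rpl14 came closest to the threshold. Its probe set 1422128_at had signals of 1801, 2842 and 2706 on the Dox(+) arrays and 2192, 3613 and 3683 on the Dox(-) arrays. The Dox(+) arrays were below the Dox(-) arrays inside each set, while the groups overlapped over all 6 arrays because the EA15 signals were lower. The log2 difference was -0.36 (SE 0.058), a fold of 0.781 with a 95% interval of 0.714 to 0.855, and its adjusted p in limma was 0.069. It was -0.28 in the EA15 set and -0.39 in the EA20 set. Across the alternatives the adjusted p ranged from 0.029 (genes with low signals left out) to 0.9999 (no block), and it was under 0.05 in that first setting and with a pseudocount of 1, where it was 0.049. Rpl14 has 1 probe set of this kind, so no second reading of it was available.

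Rpl12 and Rpl39 had the next smallest p-values among large subunit genes with a difference below 0. Rpl12, which forms the base of the stalk that recruits translation factors, had signals of 1698, 534 and 665 on the Dox(+) arrays and 1421, 843 and 851 on the Dox(-) arrays. The Dox(+) array was above the Dox(-) array in the EA15 set, and both Dox(+) arrays were below both Dox(-) arrays in the EA20 set. The log2 difference over both sets was -0.25 (SE 0.15, adjusted p = 0.604 in limma), and it was -0.09 without the first EA20 array of Dox(+). The difference was 0.25 in the EA15 set and -0.50 in the EA20 set, and the interaction between doxycycline and array set was -0.75 (adjusted p = 0.667 in limma). Rpl12 was the 1 member of 48 with an unadjusted interaction p under 0.05, against 6.72% of all genes, and no gene passed after adjustment. Rpl39, which lines the exit tunnel of the large subunit, had signals of 310, 139 and 202 on the Dox(+) arrays and 521, 318 and 123 on the Dox(-) arrays. Its groups overlapped, and its difference of -0.39, the lowest of the 48, had a standard error of 0.31. Without 1 array it ranged from -0.08 (without the first EA20 array of Dox(-)) to -0.80 (without the second).

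Rpl27a and Rpl37, both of the large subunit, differed little with doxycycline and strongly between the array sets. Rpl27a had signals of 2598, 5178 and 5292 on the Dox(+) arrays and 2832, 5205 and 5539 on the Dox(-) arrays. Its log2 difference with doxycycline was -0.07 (SE 0.057). Rpl37, a zinc-binding protein, had signals of 3868, 8449 and 7714 on the Dox(+) arrays and 3338, 8183 and 7968 on the Dox(-) arrays. Its log2 difference was 0.07 (SE 0.069), and the groups overlapped for both genes.

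The remaining named large subunit genes were in the bright range. The stalk proteins contact the elongation factors: Rplp0 is the scaffold and Rplp2 one of the acidic proteins bound to it. Rplp0 had signals of 39169, 35198 and 42120 on the Dox(+) arrays and 40877, 42956 and 34389 on the Dox(-) arrays, a log2 difference of -0.02 (SE 0.11). Rplp2 had signals of 38934, 39760 and 44498 on the Dox(+) arrays and 38200, 45618 and 38200 on the Dox(-) arrays, a log2 difference of 0.02 (SE 0.10). Rplp1 was not measured by a probe set with 1 symbol and was not analysed here. Rpl11, which with Rpl5 and the 5S RNA can bind MDM2 and so link ribosome assembly to p53, had signals of 24588, 25930 and 30086 on the Dox(+) arrays and 24618, 31182 and 27258 on the Dox(-) arrays. Its difference was -0.04 (SE 0.092), and Rpl5 was not analysed here. Rpl38, known in mouse for its role in translating Hox mRNAs, differed by -0.01 (SE 0.11), Rpl8 by 0.01 (SE 0.092), Rpl37a by 0.01 (SE 0.085) and Rpl35 by -0.03 (SE 0.084). Rpl22, which mouse lymphocyte development requires, differed by 0.0025 (SE 0.094).

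In the small subunit, Rps25 and Rps6 had the lowest p-values. Rps25 takes part in initiation at some internal ribosome entry sites. It had signals of 4507, 2549 and 2603 on the Dox(+) arrays and 4818, 3290 and 2851 on the Dox(-) arrays. Inside each set the Dox(+) arrays were below the Dox(-) arrays, and over all arrays the groups overlapped. The log2 difference was -0.20 (SE 0.070), a fold of 0.872 with an interval of 0.781 to 0.974, and it did not pass (adjusted p = 0.332, limma). It was -0.12 without the first EA20 array of Dox(-). Rps6, the ribosomal protein phosphorylated by the S6 kinases downstream of mTOR, had signals of 1833, 2481 and 2601 on the Dox(+) arrays and 1863, 3451 and 2947 on the Dox(-) arrays. The gap between the EA15 arrays was -0.02 on the log2 scale, against -0.33 in the EA20 set. The log2 difference over both sets was -0.23 (SE 0.085), a fold of 0.856 with an interval of 0.748 to 0.978 (adjusted p = 0.364, limma). Without the first EA20 array of Dox(-) it was -0.13.

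**Figure D4:**
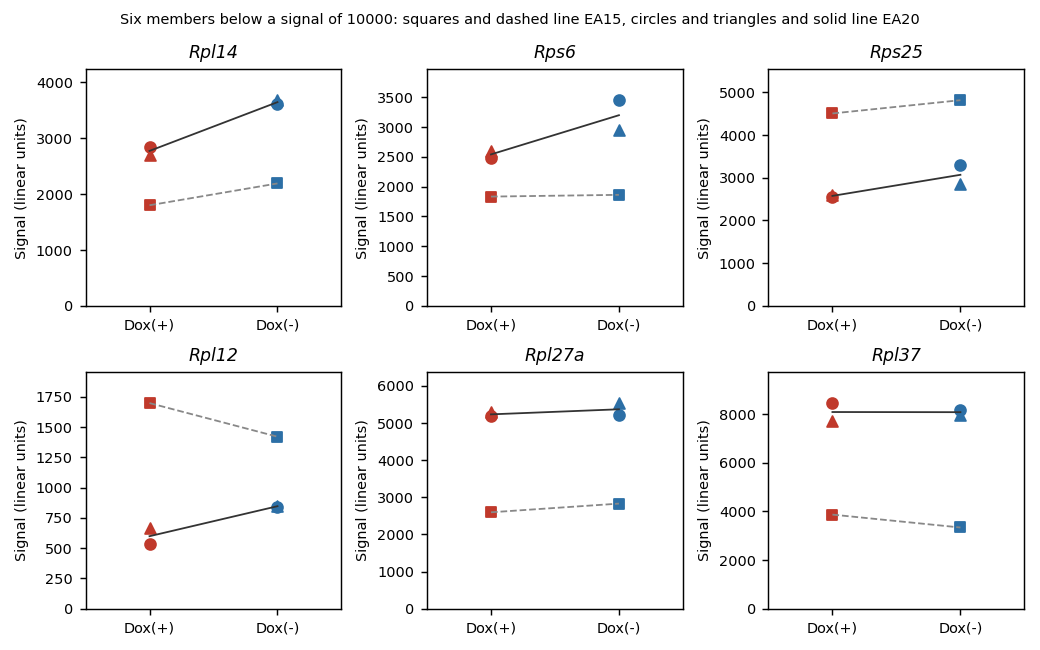
Signals (linear units, axes starting at 0) of Rpl14, Rps6, Rps25, Rpl12, Rpl27a and Rpl37 on each array, Dox(+) left of Dox(-); squares with a dashed line are the EA15 set, and circles and triangles with a solid line through their means are the first and second EA20 arrays. The gap between the lines, which is the difference between the sets, exceeds the slope of either line in each of these genes. In Rpl12 the lines slope in opposite directions.

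Small subunit genes of inherited or acquired anaemia lay in the bright range and differed little. Rps19, the gene most often mutated in Diamond-Blackfan anaemia, had signals of 26215, 33418 and 34048 on the Dox(+) arrays and 26112, 35380 and 30651 on the Dox(-) arrays. Its log2 difference was 0.03 (SE 0.086). Rps26, another gene of that disease, differed by -0.01 (SE 0.094). Rps14, whose loss marks the 5q- syndrome of myelodysplasia, had signals of 36230, 33761 and 39188 on the Dox(+) arrays and 35575, 40096 and 34371 on the Dox(-) arrays, a difference of -0.01 (SE 0.099). The groups overlapped for each of these 3 genes. Rps4x differed by -0.07 (SE 0.11), the lowest value among the 34 bright members, and Rps18, of the subunit's head, by -0.07 (SE 0.11). Rps10, Rps24, Rps15, Rps3a1 and Rps29 differed by -0.06 to -0.01. Rps29 had the highest mean signal over the 6 arrays of the 18193 genes analysed. Its signals were 42853, 43767 and 51715 on the Dox(+) arrays and 43044, 52640 and 44936 on the Dox(-) arrays.

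Rps16 is a core protein of the small subunit, yet its 1 probe set here, 1455835_at, gave signals of 1.96, 1.91 and 1.42 on the Dox(+) arrays and 1.61, 1.37 and 1.96 on the Dox(-) arrays. These are among the lowest signals on the arrays, and this probe set gave no usable level of Rps16. Values under 16 lie below the pseudocount, so their log2 differences are pulled towards 0, and the difference of 0.01 for Rps16 carries no information on its level.

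Of the 5 paralogs, Rpl22l1 and Rps27l were the well detected ones. Rps27l, a p53-inducible paralog of Rps27, had signals of 15016, 13393 and 14228 on the Dox(+) arrays and 16615, 15438 and 14558 on the Dox(-) arrays. Each Dox(+) array was below the Dox(-) arrays of its own set, and the log2 difference was -0.13 (SE 0.067, adjusted p = 0.533 in limma). Rpl22l1, which can stand in for Rpl22, had signals of 16176, 13269 and 14398 on the Dox(+) arrays and 17311, 14496 and 13861 on the Dox(-) arrays, a difference of -0.06 (SE 0.068).

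The other paralogs had low signals. Rpl3l, the paralog of heart and skeletal muscle, had signals of 33.5, 47.3 and 20.9 on the Dox(+) arrays and 9.26, 7.13 and 20.3 on the Dox(-) arrays. It was the 1 member of 48 whose groups did not overlap, against 6.90% of all genes. The second EA20 arrays of the groups were nearly equal, and the highest Dox(-) signal was just under the lowest Dox(+) one. The log2 difference was 0.82 (SE 0.36) and did not pass (adjusted p = 0.446, limma). Rpl39l, a paralog used in the testis, had signals of 15.4 to 38.2 on the Dox(+) arrays and 22.4 to 32.7 on the Dox(-) arrays, and its difference was -0.10 (SE 0.31). Rps4l, a paralog of Rps4x, gave signals of 2.61, 5.80 and 2.15 on the Dox(+) arrays and 3.92, 2.61 and 2.18 on the Dox(-) arrays, a difference of 0.04 on the compressed scale (SE 0.24).

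Counted over the sets, 4 members had every Dox(+) array below the Dox(-) arrays of its own set (Rpl14, Rps25, Rps6 and Rps27l), against 11.2% of all genes, and 1 (Rpl3l) had every one above, against 12.6%. The 4 lower ones lie in the middle range of signal. There 9 of 10 members had a difference below 0, against 49.3% of all genes. By set, 7 of the 10 lay below 0 in EA15 and 10 in EA20, against 8640 and 9154 of all 18193 genes. The middle range had a median difference of -0.16. Its members were singled out after the values were seen.

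Several members have more than 1 probe set, and these did not always give the same difference. Ribosomal protein genes have many processed pseudogenes, and probe sets ending in _x_at, _a_at or _s_at can bind related transcripts, so their signals may include those of copies. Of the 48 probe sets used, 33 end in _x_at (14), _a_at (17) or _s_at (2). The widest disagreement with doxycycline came from dim probe sets. For Rps6 the dim probe set 1453466_at had a mean signal of 31.1 and a difference of 0.58 (SE 0.48), against -0.23 for the one used. For Rpl35 the 5 bright probe sets gave -0.06 to -0.02, and 1454833_at, with signals of 134, 54.6 and 61.1 on the Dox(+) arrays and 62.6, 9.02 and 73.5 on the Dox(-) arrays, gave 0.74 (SE 0.47). Rps24 ran from -0.26 to 0.49, Rps18 from -0.46 to 0.0036 and Rps10 from -0.41 to -0.02, and the values farthest from 0 came from probe sets with mean signals of 85.6, 84.5 and 154. None of the 102 probe sets of the members passed in a limma fit over all probe sets, where 0.0866% passed, and 5 had an unadjusted p under 0.05, against 9.44% of all probe sets.

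Between the array sets the members differed far more than between the groups. The same limma fit gave the difference of EA20 over EA15, with doxycycline as a term. Of the 48 members, 15 passed (31.3%), against 33.6% of all genes and 74.6% of the other genes above the 90th percentile of signal. Against these shares the count is not above the background. The members called were 11 higher and 4 lower on EA20 arrays, against 17.3% and 16.3% of all genes. The split was 7 higher and 5 lower after quantile normalization and 5 higher and 4 lower after median centring. It was 5 higher and 7 lower of 25 members when _s_at, _x_at and _a_at probe sets were dropped. Over all genes, in either direction, 6107 passed in the main fit, 6101 after quantile normalization and 6124 after median centring. Without those probe sets 5081 passed, out of fewer genes. Shares of all genes by direction are not given for these alternatives. Leaving out either EA15 array left a lone array for its set. The median difference of the members was then 0.17 (without the Dox(+) one) or 0.15 (without the Dox(-) one). The labels do not say whether the sets differ in culture, extraction or scan.

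Rpl37 and Rpl27a had the largest differences towards EA20. Rpl37 was higher on EA20 arrays by 1.16 on the log2 scale (SE 0.073), a fold of 2.24, and Rpl27a by 0.96 (SE 0.061), a fold of 1.95. Rpl14 was higher by 0.67 (SE 0.061, adjusted p = 2.6e-05 in limma), a fold of 1.60, and Rps6 by 0.62 (SE 0.090). In the opposite direction, Rpl12 differed by -1.11 (SE 0.16), Rpl39 by -1.07 (SE 0.33), Rps25 by -0.73 (SE 0.075) and Rpl22l1 by -0.26 (SE 0.072, adjusted p = 0.021 in limma). All 8 lie in the middle range of signal, where 8 of 10 members passed. The share that passed was 33.6% of all genes and 74.6% of the 1781 other genes of high mean signal described above. The bright members differed by -0.11 to 0.45, and 7 of 34 passed, against 45.9% of the 37 other genes above 20000. All 7 were higher on EA20 arrays: Rps15, Rps7, Rpl37a, Rps19, Rps9, Rpl10a and Rpl35.

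The probe sets of 1 gene could disagree in direction between the array sets. Rpl37a differed by 0.40 (SE 0.090) with the probe set used and by -1.75 (SE 0.20) with 1416218_x_at, whose signals were 2281, 550 and 626 on the Dox(+) arrays and 2233, 1014 and 541 on the Dox(-) arrays. Rpl41 differed by 0.06 with the probe set used and by -1.51 with 1454639_x_at. For Rps9 the 3 probe sets gave 0.34, 1.40 and -0.78, and each of the 3 passed in the fit over all probe sets, in which 13.4% of probe sets were higher and 11.4% lower. Rpl41, Rps7, Rps9 and Rpl10a lie outside the rule for named genes and are given because of these values. Of the 23 members with more than 1 probe set, 9 had set differences of both signs and 14 had 1 sign, such as Rps15 with 0.35 and 0.45, and 25 members had a single probe set. The signs were counted whatever the standard error, so they include dim probe sets such as 1453466_at of Rps6 (-0.14, SE 0.51). Of the 9, Rpl37a, Rps24 and Rps9 had probe sets past the threshold in both directions, and the others did not.

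No member had a doxycycline difference that differed between the array sets past the threshold. The interaction fit gave 0 of 48 members and 0 of all 18193 genes. It rests on 1 array of each group in the EA15 set, which was assumed to vary like the EA20 arrays.

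Genes that act with ribosomal proteins were measured from lists chosen with earlier results of these data known, and none of them passed with doxycycline. Of 33 ribosome assembly factors, 30 had a log2 difference below 0, against 49.3% of all genes. Their median was -0.14, and it was 0.01 in the EA15 set and -0.22 in the EA20 set. Fbl, the methyltransferase of box C/D ribonucleoproteins, had signals of 11966, 5172 and 5197 on the Dox(+) arrays and 12289, 7880 and 7753 on the Dox(-) arrays, a difference of -0.41 (SE 0.10, adjusted p = 0.202 in limma). Nob1, the nuclease that finishes the 18S RNA, differed by -0.37 (SE 0.093) and Nop14, of the small subunit processome, by -0.27 (SE 0.073). Of 32 translation factors the median was -0.06, and Eif3l, Eif3b and Eif3i, subunits of initiation factor eIF3, differed by -0.17 (SE 0.062), -0.22 (SE 0.079) and -0.16 (SE 0.066). Of 16 genes of mTOR signalling and TOP mRNA control the median was -0.03. Mtor itself differed by -0.12 (SE 0.082), Larp1, which binds TOP motifs, by -0.06 (SE 0.062), and Eif4ebp2, a repressor of cap-dependent initiation, by 0.08 (SE 0.067). Fau, whose product includes the small subunit protein S30, differed by 0.01 (SE 0.096).

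Between the array sets the ribosome assembly list had a median well below 0 and the ribosomal protein genes one near or above it, and the difference between the lists was not tested. The median log2 difference of EA20 over EA15 was -0.69 for the 33 assembly factors, 0.15 for the 48 ribosomal protein genes and 0.04 for all genes. Past the threshold, 28 assembly factors were lower and 1 was higher on EA20 arrays, and 4 ribosomal protein genes were lower and 11 higher, where the shares over all genes were 16.3% lower and 17.3% higher. Without regard to the threshold, 31 of the 33 assembly factors and 10 of the 48 ribosomal protein genes lay below 0. So did 8578 of all 18193 genes. Of the translation factors, 14 passed as lower and 8 as higher, and of the mTOR and TOP control genes 6 passed as lower and 4 as higher. The median of the ribosomal protein genes was 0.02 after quantile normalization and 0.03 after median centring, which moved the median of all genes to -0.08. It was -0.0097 over the 25 members left when _s_at, _x_at and _a_at probe sets were dropped.

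**Figure D5:**
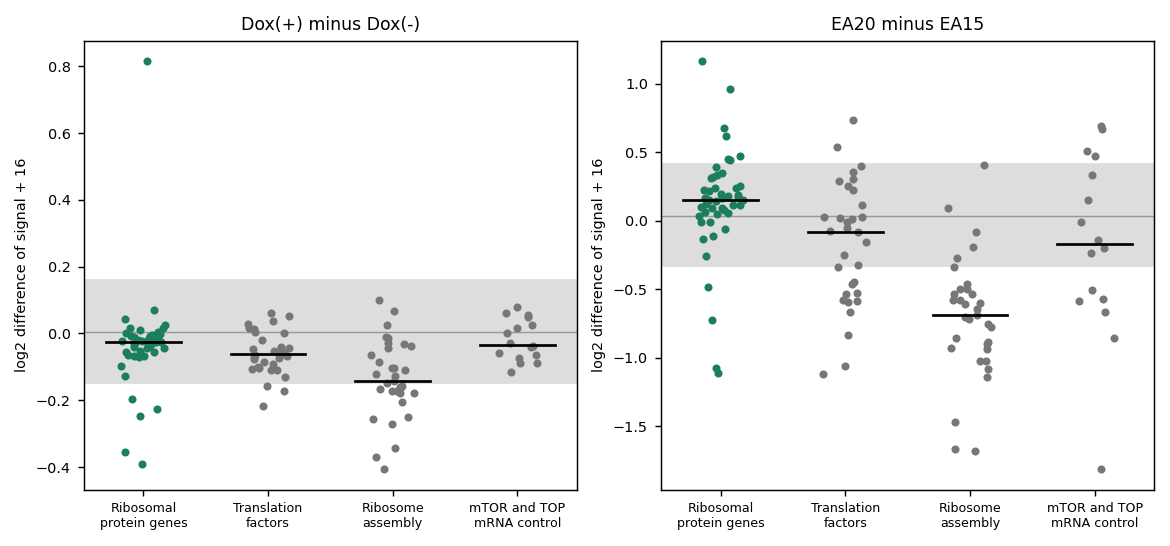
Log2 difference of signal + 16 for each gene (points) of 4 gene groups, Dox(+) minus Dox(-) on the left and EA20 minus EA15 on the right, with a black bar at each group's median; the grey line and band are the median and the middle quartiles of all genes. The medians with doxycycline are -0.02, -0.06, -0.14 and -0.03, and between the sets the ribosome assembly genes have a median of -0.69 while the ribosomal protein genes have one of 0.15.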

How the data were processed

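The deposited values are linear signal intensities of 6 Affymetrix mouse arrays, which the authors made, per the submitters' processing notes, with Affymetrix Expression Console. Its algorithm and version were not given in the sources used. Of 45037 probe sets without controls, 34945 have 1 gene symbol in the platform annotation, 932 several and 9160 none listed. These gave 18193 genes, each with its probe set of highest mean signal. All 48 members were matched to RefSeq by Entrez ID. Log2(signal + 16) was fitted in limma 3.58.1 (R 4.3.3; lmFit, eBayes with trend) with doxycycline and the array set as terms, and adjusted over all genes with Benjamini-Hochberg. Genes with low signals were kept. The script was tested on simulated data. The number of arrays limits the precision.

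The members and gene lists were chosen with earlier results of these data known. Named were the members with the 10 smallest p-values in each direction with doxycycline and the 5 smallest in each direction between the sets, the 5 highest and 5 lowest in mean signal, the paralogs, the stalk genes, the anaemia genes Rps19, Rps26, Rps14, Rpl5 and Rpl11, the 5 genes whose probe sets disagree most, and up to 3 genes of each other list. Limits of 20000 and 50 on the mean signal were set after seeing the values. Alternatives changed the block, arrays, normalization, prior, pseudocount (1 or 64), filter, probe sets, weights and threshold. Replicate numbers follow the accession order and do not pair samples.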

Additional observations from a re-analysis of the deposited data

How the results depend on the processing

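The count of members that passed with doxycycline was 0 in the main setting and 1 (Rpl14, lower) with a pseudocount of 1, with genes whose mean signal was under the 40th percentile left out, and at an adjusted p under 0.10; it was 0 in the 10 other alternatives listed, in both sets of added probe sets and without any 1 array. Over all genes the count was 36, and it was 0 without the block, without the trend, without the first EA20 array of Dox(+) and without the second of Dox(-), and 130 with genes of low signal left out. The median doxycycline difference of the members ranged from -0.08 to 0.03 without 1 array and from -0.07 to -5.4e-05 in the 12 other alternatives. The count between the array sets was 15 in the main setting, 9 with median centring and 8 without the trend, and ranged from 7 to 15 without 1 array. Over all genes the count between the sets was 6107 in the main setting, 6124 with median centring and 4917 without the trend. The lowest count of members came from the fits without an EA15 array, which left a lone array for that set. The median of the members between the sets was 0.15, against 0.038 over all genes. It was 0.017 with quantile normalization, against -0.015, and 0.035 with median centring, against -0.081. It was -0.0097, against 0.046, when _s_at, _x_at and _a_at probe sets were dropped, which left 25 members. It ranged from 0.11 to 0.21 without 1 array. The cause was not tested. The interaction count stayed at 0 in 11 alternatives and in the fits without 1 EA20 array, and it could not be fitted without an EA15 array. Of 540 refits of the 31 named members, 538 kept their side of the threshold, 2 passed (both Rpl14), and none that was called turned direction. No paired analysis was possible because the labels number no replicates and the numbers used here follow the order of accession. Genes of the other lists were not refitted. With 3 arrays per group, the standard errors of the bright members ran from 0.083 to 0.11 on the log2 scale, and from 0.053 to 0.063 after quantile normalization, which sets the size of change that could be detected.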

Other observations

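Probe sets that the platform annotation pairs with several symbols, a ribosomal protein symbol among them, were left out of the genes above because their target is not single. There were 110, with a median signal of 31388. Their median log2 difference with doxycycline was -0.03 and 88 lay below 0, against 23171 of all 45037 probe sets. None passed in a limma fit over all probe sets, where 0.0866% passed, and 4 had an unadjusted p under 0.05, against 9.44% of all probe sets. Between the array sets their median difference was 0.16, with 35 higher and 6 lower on EA20 arrays, against 29 higher and 12 lower of the 102 single-symbol probe sets of the members and 13.4% higher and 11.4% lower of all probe sets.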
